A study of Rattus norvegicus with 15 samples.

Results

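Actb, Gapdh and Ldha, which encode beta-actin and a pair of enzymes of glucose metabolism, were followed through ribosome footprints and RNA of the neonatal rat brain. The 3 genes were taken as listed rows of the count table, ENSRNOG00000034254 for Actb, ENSRNOG00000018630 for Gapdh and ENSRNOG00000013009 for Ldha, out of 22050 Ensembl gene IDs. The symbols are the ones listed with these IDs. RefSeq's rat gene table (assembly GRCr8) holds 1 protein-coding entry for each symbol but pairs 0 of its entries with Ensembl IDs, so the names were not checked against an annotation and the other rows are given without names.

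Every library was made from whole brain of rats of the Sprague Dawley strain, aged postnatal day 5, and a homogenate combined 5 brains. Footprints are the stretches of mRNA that a ribosome shields from nuclease. They were prepared here from the dense pellet of a sucrose gradient, the fraction that holds RNA granules and packed polysomes. There were 5 vehicle footprint libraries, 3 from tissue homogenised with 100 ug/ml cycloheximide, and 2 in which the resuspended pellet was held in 400 mM NaCl before RNase I. Homogenate RNA, labelled control, was sequenced in 5 libraries and was not fractionated. The buffer of all groups held 150 mM NaCl. Footprints were the RNA of single ribosomes taken from a second gradient after the nuclease step. Each library draws on pooled animals, and the labels do not say that libraries of a group came from separate homogenates, so p-values measure the spread between these libraries, which may be partly technical. The whole-brain label was not checked against marker genes, because only these 3 rows carried names.

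Beta-actin is a subunit of the microfilaments that shape growth cones and dendritic spines. Its mRNA is a classic transported message: RNA-binding proteins such as Igf2bp1 (ZBP1) recognise a zipcode in its 3′ untranslated region, carry it in granules along neurites and hold back its translation on the way. Gapdh catalyses the glyceraldehyde-3-phosphate step of glycolysis, and Ldha interconverts pyruvate and lactate. Both are general metabolic messages, and Gapdh is widely used as a reference gene. Cycloheximide arrests elongating ribosomes, and high salt strips loosely bound proteins and ribosomes that carry no nascent chain.

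The libraries formed a deep and a shallow set. Set A comprised 9 libraries (vehicle footprints 1 to 3, all cycloheximide libraries and RNA-seq 1 to 3) with 19223750 to 53645452 counts each. Set B comprised 6 libraries (vehicle footprints 4 and 5, both salt libraries and RNA-seq 4 and 5) with 941546 to 2808669. Cycloheximide libraries thus stood only in set A and salt libraries only in set B. Levels are given as CPM, the count per 1000000 counts of the library, and ranks are by count, neither corrected for gene length. They are therefore compared between libraries for 1 gene and not between genes. In bulk tissue, fewer cells that express a gene and less of its RNA per cell cannot be told apart.

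The absolute levels carry an uncertainty from gene copies. RefSeq lists 10 entries named as Actb pseudogenes, 81 for Gapdh and 30 for Ldha, and the coding sequence of Actb closely resembles that of its paralog Actg1. How reads that match several places were counted is not given in the sources used here, so reads may have been lost from these rows or shared with copies. Short footprints and longer RNA-seq reads can differ in this respect, and the part of this in the footprint to RNA ratios below was not tested.

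Actb was among the 8 most counted genes of every library. In vehicle footprints 1 to 5 it stood at 8938, 12639, 13521, 6502 and 6380 CPM, and in RNA-seq 1 to 5 at 3107, 3157, 4121, 6785 and 5975 CPM. The set A footprints were the highest of these values and the set A RNA-seq libraries the lowest, while both kinds of set B library lay close together between them. The cycloheximide libraries held 9290, 13295 and 13815 CPM, within or just above the range of the set A vehicle libraries. The salt libraries held 7833 and 6838 CPM, both above the set B vehicle libraries and below all set A footprints. By rank Actb was 2 in all 6 set A footprint libraries, 3 or 4 in the set B footprint libraries, and between 3 and 8 in RNA-seq.

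Gapdh showed a narrower version of the same arrangement. Vehicle footprints 1 to 5 held 293, 359, 375, 216 and 156 CPM, and RNA-seq 1 to 5 held 171, 207, 192, 257 and 214 CPM. Every set A footprint value lay above every RNA-seq value, whereas the set B footprint values were among or below those of the set B RNA-seq libraries, with vehicle 4 at 216 CPM next to RNA-seq 5 at 214 CPM. Cycloheximide libraries held 291, 370 and 385 CPM and salt libraries 249.6 and 211 CPM. Its rank ran from 438 to 1218 in footprint libraries and from 695 to 1363 in RNA-seq.

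Ldha had the fewest counts of the 3 genes and the most overlap between footprints and RNA. Vehicle footprints 1 to 5 held 96.7, 171, 153, 82.8 and 70.9 CPM, and RNA-seq 1 to 5 held 126, 109, 94.8, 82.1 and 53.9 CPM. Set B libraries were the low ones in both kinds of library. Cycloheximide libraries held 112, 169 and 159.7 CPM. The salt libraries held 57.4 CPM (95% Wilson interval 44.0 to 74.8, from 54 counts) and 85.4 CPM (70.2 to 104, from 99 counts), so counting error alone spans most of the distance to the set B vehicle libraries. Its rank ran from 1249 to 3335 in footprints and from 1991 to 4217 in RNA-seq.

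**Figure D1:**
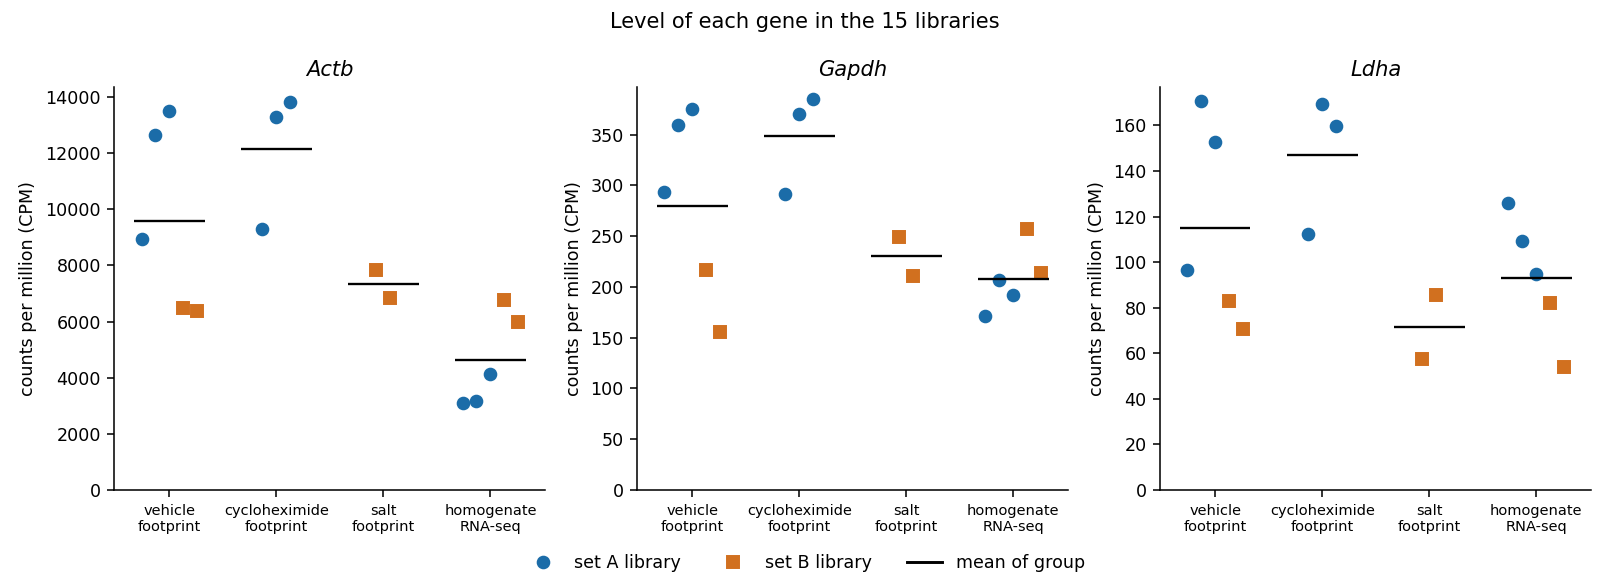
CPM of Actb, Gapdh and Ldha (one panel each, linear axis from 0) in the 15 libraries by group, with circles for set A, squares for set B and a line at the group mean. For Actb the 3 set A footprint libraries of the vehicle group lie between 8938 and 13521 CPM and the 3 set A RNA-seq libraries between 3107 and 4121 CPM, with the set B libraries of both groups in between.

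Footprints were set against homogenate RNA to ask how many footprints of the dense fraction each message gave relative to its abundance. None of the libraries held unprotected RNA of the pellet. The share of a message in the pellet and its ribosomes per mRNA therefore cannot be told apart. All 3 genes had more footprints than RNA on the TMM scale, which sets library sizes by the bulk of genes. Over 5 against 5 libraries the log2 ratio was 1.52 for Actb (SE 0.34, edgeR adjusted p 0.00465), 0.92 for Gapdh (SE 0.28, adjusted p 0.0231) and 0.84 for Ldha (SE 0.30, adjusted p 0.0464). In CPM the vehicle footprint means were 9596 ± 3355 (SD, n = 5) against 4629 ± 1673 in RNA for Actb, 279.8 ± 93.5 against 208 ± 32.0 for Gapdh, and 115 ± 44.3 against 93.1 ± 27.3 for Ldha. These are 2.07-fold, 1.34-fold and 1.23-fold. Calls were common here: 27.9% of the 14347 genes tested were called in one direction or the other, 1834 higher and 2164 lower in footprints, so being called did not set these 3 apart. With library totals alone the split was 507 higher and 4252 lower.

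The place of each gene among all genes tested separated them more than the call did. The ratio of Actb was above that of 98.4% of the genes tested, that of Gapdh above 89.6% and that of Ldha above 87.3%. The median of all genes was -0.06 with TMM factors and -0.56 when library totals alone set the scale. With totals alone the log2 ratio was 1.05 for Actb (adjusted p 0.0113), 0.42 for Gapdh (0.189) and 0.30 for Ldha (0.451), so only the Actb call held under every scaling tried. Relative to the median gene the ratios hardly moved, at 1.58 and 1.60 for Actb, 0.98 and 0.98 for Gapdh, and 0.90 and 0.85 for Ldha under TMM and totals alone. Leaving out vehicle library 2 or 3 took Gapdh above 0.05 (adjusted p 0.0547 and 0.0610), and Ldha lost its call without vehicle library 1, 2 or 3 or RNA-seq library 2, 3, 4 or 5 (0.0541 to 0.131). A replicate block took Gapdh to 0.0654. All 3 were called by DESeq2 and limma-voom (for Ldha 0.0444 and 0.0303). They were also called with library set, described above, as a covariate. That edgeR fit gave 1.57 for Actb (adjusted p 0.00438), 0.87 for Gapdh (0.0240) and 0.78 for Ldha (0.0154). It takes 1 ratio for both sets.

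The 3 genes were called within the deep libraries and not within the shallow ones. Within set A (3 against 3) the log2 ratio was 2.32 for Actb (SE 0.26, edgeR adjusted p 0.000131), 1.41 for Gapdh (SE 0.19, adjusted p 0.00028) and 0.92 for Ldha (SE 0.23, adjusted p 0.00824), where 51.3% of genes were called. Within set B (2 against 2) it was 0.26 for Actb (SE 0.16, adjusted p 0.393), -0.10 for Gapdh (SE 0.26, adjusted p 0.872) and 0.42 for Ldha (SE 0.36, adjusted p 0.565), where 3.79% were called. In CPM the set A folds were 3.38, 1.80 and 1.27 and the set B folds 1.01, 0.790 and 1.13 in the order Actb, Gapdh, Ldha. With the gene ENSRNOG00000010711 left out of the totals, the set B folds were 1.12, 0.866 and 1.24. Those of set A were then 3.39, 1.81 and 1.28. That gene took 5.17% and 13.5% of the counts of vehicle libraries 4 and 5. Its share was 0.632%, 0.229% and 0.297% in vehicle libraries 1 to 3, and at most 0.0212% in RNA-seq. Actb lay above 99.6% of the genes tested in set A but above 65.5% in set B, Gapdh above 95.9% and 49.0%, and Ldha above 87.3% and 72.3%. The order of the 3 genes in set A, with Actb first and Ldha last, was not the order in set B, where Ldha was first and the standard errors overlapped.

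**Figure D2:**
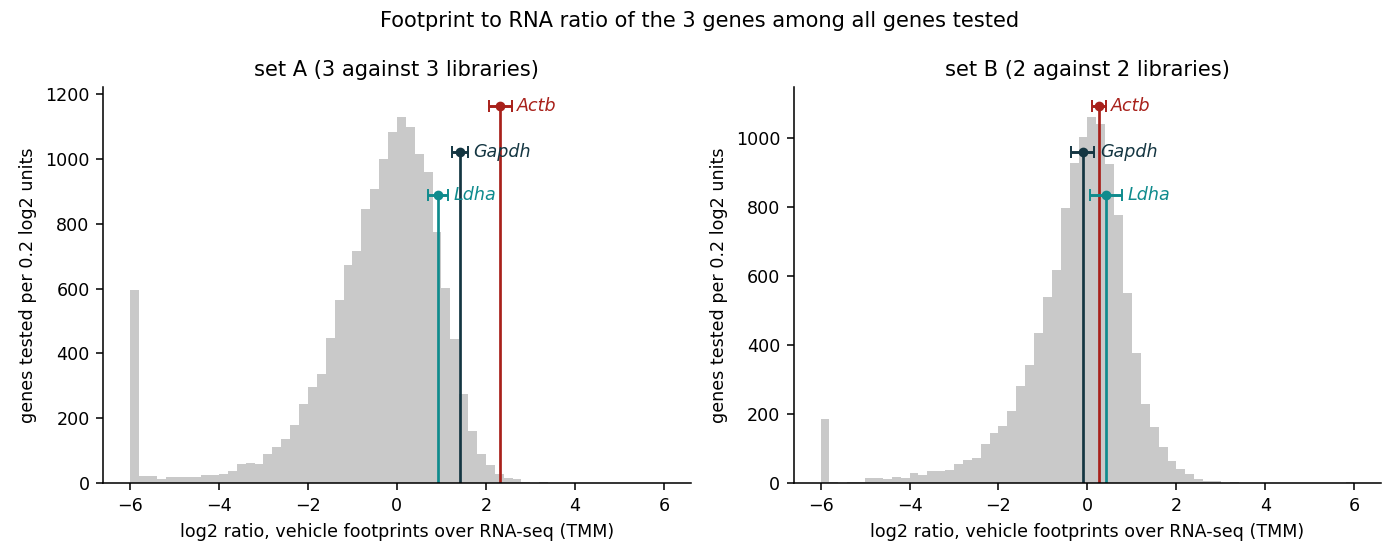
Log2 ratio of vehicle footprints to RNA-seq (TMM-scaled edgeR fit) within set A, left, and set B, right: grey bars count all genes tested, with ratios beyond the axis ends drawn in the end bars, and coloured lines mark the 3 genes with their SE as a horizontal bar. Actb stands in the right tail of set A at 2.32 and near the middle of set B at 0.26.

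An interaction term asked whether the ratio itself was different in the deep and the shallow libraries. The footprint to RNA ratio of Actb was lower in set B than in set A by a log2 difference of -2.11 (SE 0.36, edgeR adjusted p 0.0144), and that of Gapdh by -1.57 (SE 0.32, adjusted p 0.0287). Ldha gave -0.56 (SE 0.42, adjusted p 0.448). In this test 2.97% of 14347 genes were called and the median gene was at -0.26. Relative to that median the values were -1.84 for Actb, -1.30 for Gapdh and -0.30 for Ldha. Of the genes tested, 9.86% had a lower value than Actb, 14.2% than Gapdh and 39.0% than Ldha. With library totals alone the median was at 0.08, Gapdh lost its call (adjusted p 0.0628) and Actb kept it (0.0201).

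Both interaction calls depended on single libraries, although their direction did not. So did the number of genes called, which was 426 with all 10 libraries and moved by over 1.5 times in each fit but the one without RNA-seq library 3, from 36 without RNA-seq library 4 to 3151 without vehicle library 5. For Actb the adjusted p ranged from 0.00180 to 0.0976 over the 10 fits that left out 1 library, and it was above 0.05 without vehicle library 3 or 4 or RNA-seq library 1, 2 or 4. For Gapdh it ranged from 0.00789 to 0.157 and was above 0.05 without vehicle library 2 or 3 or any 1 of the 5 RNA-seq libraries. The Actb difference stayed between -2.31 and -1.77 and the Gapdh difference between -1.75 and -1.18 in these fits.

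Set B was then compared with set A within each kind of library, to see which side of the ratio differed. In vehicle footprints the log2 differences of set B from set A were alike for the 3 genes, at -0.89 for Actb (SE 0.26), -0.92 for Gapdh (SE 0.25) and -0.91 for Ldha (SE 0.31), with edgeR adjusted p of 0.132, 0.128 and 0.153 and 0.128% of 14072 genes called. That count rested on single libraries: it was 18 with all 5, 490 of 13290 without vehicle library 1 and 3648 of 14549 without vehicle library 5. Without vehicle library 1 the adjusted p was 0.0418 for Actb, 0.0513 for Gapdh and 0.0474 for Ldha. With all 5 vehicle libraries, 21.6% of genes tested had a lower difference than Actb, 20.9% than Gapdh and 21.3% than Ldha. A drop of this size was thus not particular to these genes. In RNA-seq the genes went apart. Actb was higher in set B by 1.07 (SE 0.20, adjusted p 0.0216), Gapdh stood at 0.50 (SE 0.19, adjusted p 0.132) and Ldha at -0.49 (SE 0.23, adjusted p 0.215), with 5.85% of 15930 genes called. The Actb call was lost without RNA-seq library 1, 2 or 4 (adjusted p 0.0657, 0.128 and 0.0560). The 932 genes called here became 324, 142, 1622 and 1577 without RNA-seq library 1, 2, 4 and 5, and the Ldha difference was -0.87 without RNA-seq library 4 and -0.20 without RNA-seq library 5. Depth and library set cannot be told apart here.

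A count ratio of 2 genes within a library does not depend on how the library is scaled. Gene length cancels when that ratio is compared between footprint groups. It need not cancel between footprints and RNA, since footprints come from the translated part of an mRNA and RNA-seq reads from all of it. The part of this in the ratios below was not tested. Actb over Gapdh, the contrast of the transported with the reference message, was 30.5, 35.2, 36.1, 30.1 and 41.0 in vehicle footprints 1 to 5. In RNA-seq 1 to 5 it was 18.2, 15.2, 21.5, 26.4 and 28.0. Every footprint library lay above every RNA-seq library, although vehicle library 4 at 30.1 and RNA-seq library 5 at 28.0 nearly met.

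On the log2 scale the Actb to Gapdh ratio was 5.10 ± 0.19 (SD, n = 5) in footprints and 4.41 ± 0.37 (SD, n = 5) in RNA, a difference of 0.69 or 1.61-fold. The exact two-sided permutation p was 0.00794, the smallest that 5 against 5 libraries allow, and 0.0714 after Benjamini-Hochberg adjustment over the 9 ratio comparisons made, so the difference did not pass the correction. A single ratio at that smallest p cannot pass this correction unless other ratios also give low p-values. Here none did, the next lowest exact permutation p being 0.143. The log2 difference was 0.90 within set A (exact permutation p 0.1) and 0.37 within set B (exact permutation p 0.333), the smallest p-values those designs allow. The ratio was higher in the footprint libraries of both sets, and whether its size differed between sets was not tested.

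Actb over Ldha overlapped between the groups. It was 92.4, 74.0, 88.6, 78.5 and 90.0 in vehicle footprints 1 to 5 and 24.7, 28.9, 43.5, 82.6 and 111 in RNA-seq 1 to 5. The RNA-seq libraries of set A lay below every footprint library, and RNA-seq library 5 lay above all vehicle and cycloheximide libraries. The log2 difference was 0.78 over all libraries (exact permutation p 0.143, adjusted 0.643), 1.43 in set A and -0.19 in set B. Without RNA-seq library 5 it was 1.08 (exact permutation p 0.0476, unadjusted).

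The ratio of the metabolic messages to each other gave no difference in the pooled comparison that could be told from the spread. Ldha over Gapdh was 0.330, 0.476, 0.407, 0.383 and 0.455 in vehicle footprints 1 to 5 and 0.735, 0.527, 0.494, 0.319 and 0.252 in RNA-seq 1 to 5. The RNA-seq values spread across and beyond the footprint values on both sides, with set A above and set B below. The log2 difference was -0.09 (exact permutation p 0.746, adjusted 0.844), made up of -0.53 in set A and 0.56 in set B.

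**Figure D3:**
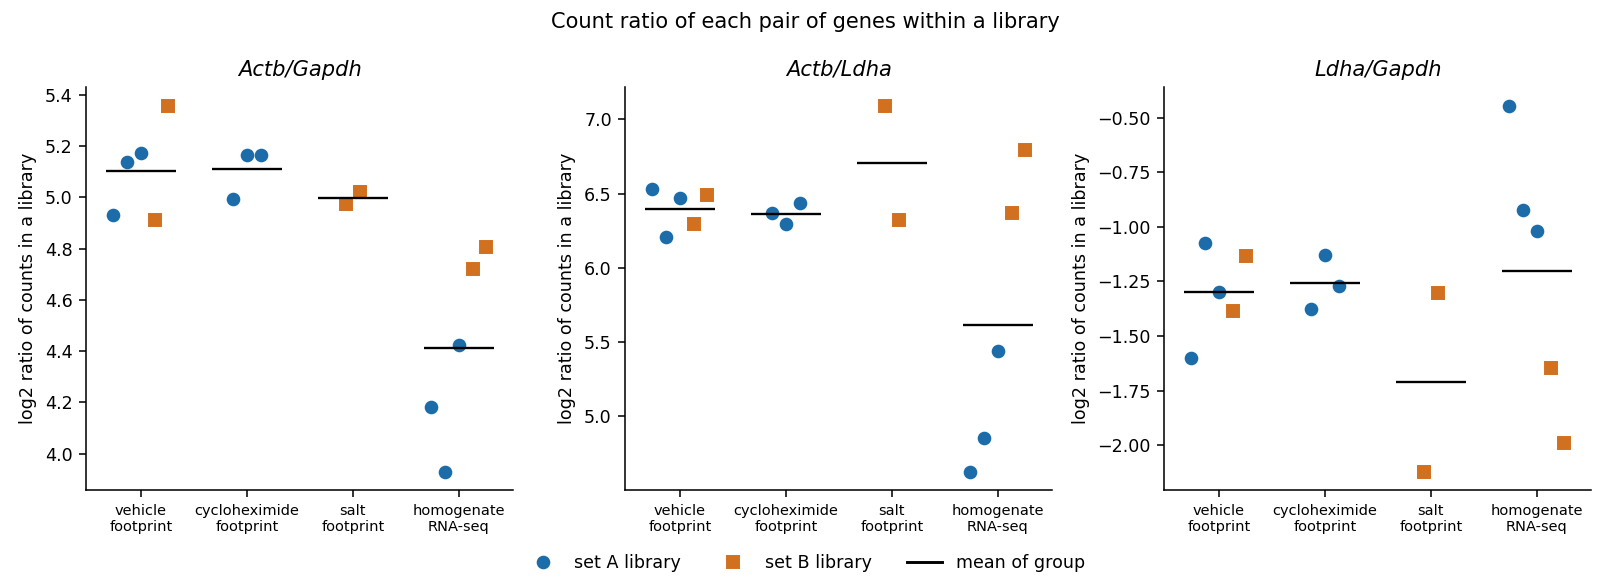
Log2 ratio of the counts of 2 genes within each library for Actb/Gapdh, Actb/Ldha and Ldha/Gapdh by group, with circles for set A, squares for set B and a line at the group mean. The Actb/Gapdh ratio averages 5.10 in vehicle footprints and 4.41 in RNA-seq with no overlap, and the RNA-seq libraries are split by set in all 3 panels.

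Cycloheximide was added during homogenisation to ask whether stopping elongation at that moment alters the footprints. None of the 3 genes was called. Against all 5 vehicle libraries the log2 changes were 0.31 for Actb (SE 0.31), 0.29 for Gapdh (SE 0.29) and 0.33 for Ldha (SE 0.31), each with an edgeR adjusted p of 0.977. In this comparison edgeR called 0% of 13939 genes, with 65 at an unadjusted p under 0.05. DESeq2 called 1 gene and limma-voom 0.

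The values were smaller within set A, where all cycloheximide libraries lie. There the log2 changes were 0.02 for Actb (SE 0.24), -0.01 for Gapdh (SE 0.17) and 0.04 for Ldha (SE 0.25), all with an edgeR adjusted p of 1.00. A p that misses the threshold does not show that the levels were equal. The CPM folds within set A were 1.04, 1.02 and 1.05. Cycloheximide and vehicle libraries of the same number are treated as pairs, and their folds for pairs 1, 2 and 3 were 1.04, 1.05 and 1.02 for Actb, 0.994, 1.03 and 1.03 for Gapdh, and 1.16, 0.992 and 1.05 for Ldha. Actb was thus slightly higher with cycloheximide in all 3 pairs. With the pair number as a block the log2 changes were 0.02 for Actb (SE 0.05), -0.01 for Gapdh (SE 0.07) and 0.06 for Ldha (SE 0.09), with an edgeR adjusted p of 1.00 for each. The level of all 3 genes was lower in library 1 than in libraries 2 and 3 in both the vehicle and the cycloheximide group, as with Actb at 8938 and 9290 CPM in the libraries numbered 1. Actb over Gapdh was 31.9, 35.9 and 35.9 with cycloheximide, a log2 difference of 0.01 from vehicle (exact permutation p 0.893, adjusted 0.893), and the other 2 ratios differed by -0.03 and 0.04 (exact permutation p 0.679 and 0.75, adjusted 0.844 for both).

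Salt treatment of the pellet was compared with vehicle to ask whether footprints depend on salt-sensitive contacts. None of the 3 genes was called against all 5 vehicle libraries, at log2 changes of -0.36 for Actb (SE 0.35, edgeR adjusted p 0.777), -0.26 for Gapdh (SE 0.35, adjusted p 0.847) and -0.66 for Ldha (SE 0.41, adjusted p 0.687). Here edgeR called 0% of 11547 genes, with 894 at an unadjusted p under 0.05, and DESeq2 called 8 and limma-voom 4. Within set B, which holds both salt libraries, the direction turned for Actb at 0.20 (SE 0.17) and Gapdh at 0.32 (SE 0.30), and Ldha stood at -0.09 (SE 0.42), all with an adjusted p of 1.00.

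The salt values in CPM also depend on a single other gene, ENSRNOG00000010711. It took 10.5% and 10.7% of the counts of the salt libraries and 5.17% and 13.5% of vehicle libraries 4 and 5. With that gene left out of the totals, Actb stood at 8204 CPM in salt and 7116 CPM in the set B vehicle libraries instead of 7335 and 6441. The fold of salt over set B vehicle was 1.15 without it and 1.14 with it. Actb over Gapdh was 31.4 and 32.5 with salt, inside the range of the vehicle libraries (log2 difference -0.10, exact permutation p 0.571, adjusted 0.844). Actb over Ldha was 137 and 80.0, a log2 difference of 0.31 (exact permutation p 0.381, adjusted 0.844), and Ldha over Gapdh 0.230 and 0.406, a difference of -0.41 (exact permutation p 0.286, adjusted 0.844). The outlying values, 137 and 0.230, both come from salt library 1, where Ldha had 54 counts, and without it the difference was -0.08 in Actb over Ldha and -0.0036 in Ldha over Gapdh.

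**Figure D4:**
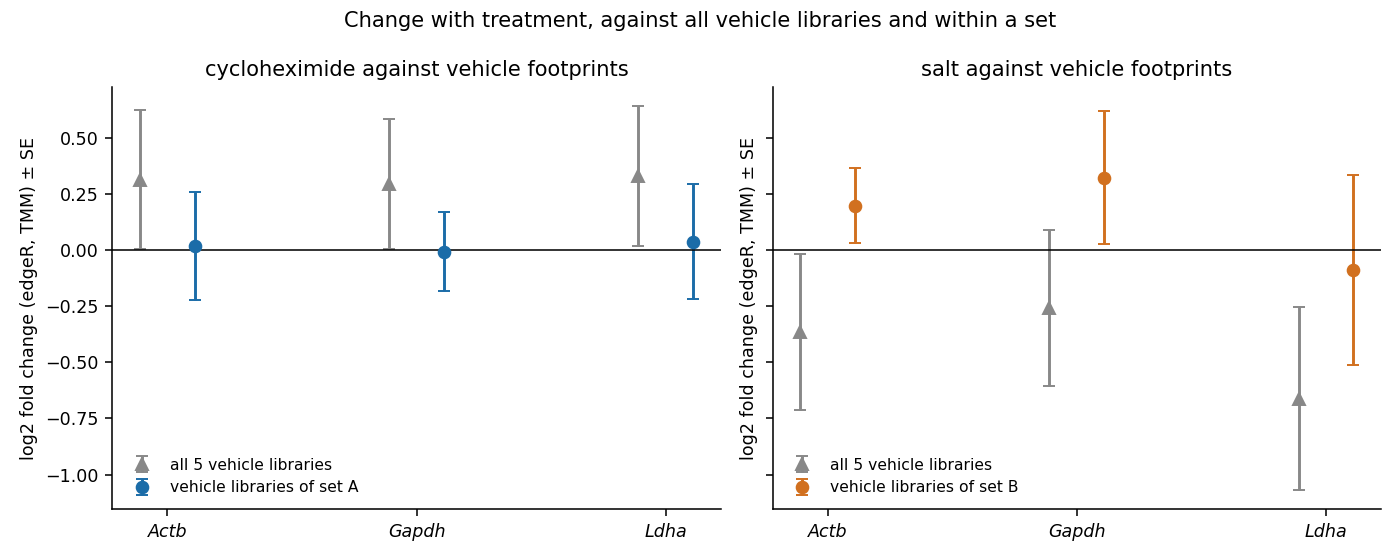
Log2 fold change of each gene with cycloheximide (left) and salt (right) against vehicle footprints, with triangles for the fit to all 5 vehicle libraries, circles for the fit within the treated libraries' own set, and bars for the SE. Within set A the cycloheximide values lie between -0.01 and 0.04, and within set B the salt values lie between -0.09 and 0.32.

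The 3 genes were also compared by how steady they were from library to library. For this, CPM was scaled by TMM factors fitted over all 15 libraries. Over the 5 RNA-seq libraries the SD of TMM-scaled log2(CPM + 1) was 0.60 for Actb, 0.29 for Gapdh and 0.40 for Ldha. Of 9222 genes with a mean of at least 10 CPM on that scale, 85.4% varied less than Actb, 40.2% less than Gapdh and 62.3% less than Ldha. Over the 10 footprint libraries the SDs were 0.49, 0.46 and 0.60, against a median of 0.51 over these genes. Gapdh was therefore near the middle of all genes in its spread rather than among the steadiest, in both kinds of library with the sets pooled. These SDs include differences between sets, the counting error of the shallow libraries and, in footprints, treatments. Within RNA-seq of set A the coefficient of variation of CPM, here by library totals without TMM, was 16.5% for Actb, 9.53% for Gapdh and 14.1% for Ldha. Their place among all genes was not computed there.

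Actb and Gapdh followed each other most closely. Over the 15 libraries Pearson's r of their TMM-scaled log2(CPM + 1) was 0.94, against 0.64 for Actb with Ldha and 0.75 for Gapdh with Ldha. These describe libraries that share set, depth and kind, and carry no test. The gene whose levels were most like those of Actb was ENSRNOG00000042245 (r = 0.989). For Gapdh it was ENSRNOG00000007660 (r = 0.970) and for Ldha ENSRNOG00000055036 (r = 0.981).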

How the data were processed

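The authors deposited 1 table of raw read counts per Ensembl gene, with 22050 rows and 15 columns, assigned to samples by title. Build Rnor_6.0 and the tools CASAVA, cutadapt 2.8, Bowtie2 2.3.5, STAR 2.7.3a and deepTools are named in the submitters' processing notes. The counting program, annotation, strand setting and handling of multiply matching reads are not given in the sources used here. Set A and set B were defined from 6 genes whose cells are empty in the set A columns. These genes were left out, leaving 22044. In RNA-seq 88.4% to 97.7% of nonzero counts were even, as when both mates of a pair are counted, against 48.6% to 50.1% in footprints, so counting intervals are too narrow for RNA-seq. Reads carry no molecular identifiers, and intervals cover counting error only.

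Each comparison was fitted over all genes with edgeR 4.0.16 (R 4.3.3) on the deposited counts: TMM factors, filterByExpr, robust quasi-likelihood F-test and Benjamini-Hochberg adjustment, called at adjusted p under 0.05. All 3 genes passed the filter. The SE is the log2 change divided by the square root of F. Only the groups compared entered a fit, without a block. Count ratios were compared by exact two-sided permutation tests (scipy 1.17.1). DESeq2 1.42.0, limma 3.58.1, other scalings, fits within a set and fits without single libraries were alternatives. The edgeR fits of cycloheximide, salt and footprints against RNA were also run on simulated counts that held no difference between sets. Interaction, within-set and permutation tests were not simulated. Over 12018 genes the deviations of a cycloheximide library from its group mean correlated with those of the vehicle library of the same title number (0.80, 0.43 and 0.37 for numbers 1 to 3). Libraries of the same number were therefore treated as pairs, although the labels do not state a pairing. Deviations from a mean cancel within a group, so these correlations are not independent, and the likeness of the libraries numbered 1 may carry the others.

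The 3 genes, the gene lists and the tests were chosen with earlier results of these data known. The comparison of set B with set A within a kind of library was added after seeing the data. Named genes were to be the 3 genes, called members of lists of glycolysis, actin and reference genes, and the genes most alike in pattern. The lists and the marker genes could not be matched to rows without names, so they are not analysed here, and of 3 genes most alike per member only the first is printed.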

Additional observations from a re-analysis of the deposited data

Results flagged for a closer look

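A pair of results differed between the library sets by a test of the difference itself. The footprint to RNA log2 ratio was lower in set B than in set A by -2.11 for Actb and by -1.57 for Gapdh (edgeR adjusted p 0.0144 and 0.0287). Their place among all genes and their dependence on single libraries are given above. The sets differ in depth and, in vehicle footprints, in the share of counts taken by ENSRNOG00000010711. The part of either in the difference was not tested. Among 12 groups of 5 libraries (CPM of the 3 genes and log2 count ratios of the 3 pairs, in vehicle footprints and in RNA-seq), 0 held a single library far from the others. Chance gives about 1 in 20 where all 5 libraries are alike in origin. Each group here pooled set A and set B, whose differences widen the range that a single library is judged against. The absence of such a library therefore says little.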

How the results depend on the processing

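Among alternative values for the log2 changes of the 3 genes in the 4 planned comparisons, 163 kept their direction and their side of 0.05, 29 kept only their direction and 9 changed sign. For count ratios, judged on the unadjusted p, 90 kept both, 11 changed sign, 3 fell short of 0.05 and 1 passed it. Set B depth limits Ldha most, with 54 to 199 counts in a footprint library and 208 and 122 in RNA-seq 4 and 5. The RNA-seq counts were mostly even, as when both mates of a pair are counted, so they overstate the depth. For footprints against RNA, Gapdh was 0.42 and Ldha 0.30 with library totals alone (adjusted p 0.189 and 0.451), and Ldha was 0.74 with RLE and 0.69 with upper-quartile factors (0.0621 and 0.0811). The difference between sets for Gapdh was -1.20 with totals alone. Within set B the ratios were 0.26, -0.10 and 0.42 for Actb, Gapdh and Ldha, and the count ratios Actb/Gapdh 0.37, Actb/Ldha -0.19 and Ldha/Gapdh 0.56. Within set A Actb/Gapdh was 0.90. Salt gave 0.196 and 0.205 for Actb and 0.322 and 0.334 for Gapdh within set B and with the set as covariate. Cycloheximide gave -0.0082, -0.0067 and -0.0060 for Gapdh with the replicate block, within set A and with the set as covariate.

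With the replicate block, footprints against RNA for Gapdh gave 0.86 (adjusted p 0.0654) and the exact sign-flip p of Actb/Gapdh was 0.0625, the smallest 5 pairs allow, at an unchanged 0.69. The correlation of same-numbered libraries was 0.08 for salt and -0.01 to 0.23 for footprints and RNA. The salt value came from numbers 1 and 2 only, whose deviations mirror each other, so it cannot decide a pairing. Footprint and RNA deviations were taken from means over both sets, so set differences enter them and they do not decide it either. The block changed no other call of the 3 genes. It took genes called with salt from 0 to 482, where DESeq2 gave 8 and limma-voom 4, while cycloheximide went from 0 to 1 with DESeq2. The blocked salt fit rests on numbers 1 and 2, whose salt libraries are in set B and vehicle libraries in set A. Salt and library set cannot be told apart in it. Genes called for footprints against RNA went from 3998 to 6042 with limma-voom, 7869 within set A and 441 within set B. For the difference between sets 426 became 230 with totals alone and 1602 with DESeq2.

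Leaving out single libraries, footprints against RNA ranged from 1.35 to 1.73 for Actb, 0.77 to 1.08 for Gapdh and 0.61 to 0.98 for Ldha, and the difference between sets from -2.31 to -1.77, -1.75 to -1.18 and -0.85 to 0.025, with 36 to 3151 genes called. The count ratios against RNA ranged from 0.57 to 0.79 (Actb/Gapdh), 0.53 to 1.08 (Actb/Ldha) and -0.29 to 0.10 (Ldha/Gapdh), without RNA-seq library 1 at the upper end of the last. With cycloheximide they ranged from -0.0406 to 0.0714, -0.0808 to 0.0030 and -0.0350 to 0.0992, and with salt Actb/Ldha from -0.0767 to 0.694 and Ldha/Gapdh from -0.82 to -0.0036. The cycloheximide log2 changes ranged from 0.19 to 0.50 for Actb, 0.15 to 0.43 for Gapdh and 0.20 to 0.52 for Ldha, and the salt changes from -0.51 to -0.20, -0.44 to -0.12 and -1.04 to -0.43, with 0 genes called by edgeR in each of these fits. The cause was not tested.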
